A study of Danio rerio with 12 samples.

Results

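The zebrafish pineal gland was compared between the time around subjective dawn and the time around subjective dusk, on the 4 arrays labelled CT22 and CT2 and the 4 labelled CT10 and CT14, 8 of the 12 arrays in all. CT, circadian time, counts hours in constant darkness, with CT 0 at the hour when lights would have come on and CT 12 at the hour when they would have gone off. Every array held RNA from 1 pool of 12 glands. The donors were adult Tg(aanat2:EGFP)Y8 zebrafish, males and females of 0.5 to 1.5 years, kept on a 12-h light and 12-h dark cycle and moved to constant darkness for the collection, which ran every 4 h through 2 daily cycles. The transgene lights up the gland for dissection through the regulatory regions of aanat2, which does not sort cells, and whatever skull, skin or blood came with the gland is in the pool. All fish carried it and all were in darkness, so the windows differed by clock time alone as far as the labels go. Of 15502 probe sets other than controls, 10810 had 1 gene symbol, and 8307 of those, for 7281 genes, passed the filter on low values and were tested among 11625 probe sets. Values are normalized intensities on a linear scale, given for the dawn arrays in the order CT22 and CT2 of cycle 1, then CT22 and CT2 of cycle 2, and for the dusk arrays in the order CT10 and CT14 of cycle 1, then CT10 and CT14 of cycle 2. The 4 arrays of a window differ in circadian time, in daily cycle, in the fish pooled and in the hybridization, so their spread holds all of these and p-values measure the difference against that mixed spread.

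The fish pineal gland is a photoreceptive organ with a clock of its own. In its photoreceptor cells CLOCK and BMAL proteins switch on per and cry genes, whose products come back to repress them, and accessory loops of REV-ERB, ROR, DEC and PAR bZIP factors act through E-boxes, RRE and D-boxes on the same genes. The output best known is melatonin, made from serotonin at night by AANAT2, whose level follows the clock in constant darkness. A comparison of dawn with dusk catches genes whose peak or trough lies near one of these windows, and is blind to genes that peak at midday or midnight and pass both windows at the same height.

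The arrays carried the pineal signature throughout. Exo-rhodopsin (exorh), the pineal photopigment, measured 757 to 2203 on the dawn arrays and 928 to 1326 on the dusk arrays, and crx, a photoreceptor transcription factor, 2486 to 3506 and 2044 to 4313. Markers of other tissues were uneven. The summed intensity of 23 skin markers was 5216, 3842, 3899 and 2792 on the dawn arrays, and 7111, 15314, 3419 and 7923 on the dusk arrays. For 17 markers of bone and connective tissue the sum ranged from 2377 to 3245 on the dawn arrays and from 2693 to 11642 on the dusk arrays, with the maximum on CT10 of cycle 1, and for 18 immune cell markers from 6133 to 7838 on the dawn arrays and from 7125 to 13531 on the dusk arrays. The 13 pineal photoreceptor markers summed to 30447 to 40918 on the dawn arrays and 38939 to 41502 on the dusk arrays. Their mean log2 intensity, in which each gene counts alike, was 9.895 to 10.542 on the dawn arrays and 10.549 to 10.808 on the dusk arrays, without overlap. The gap was narrow, 10.542 on CT22 of cycle 2 against 10.549 on CT10 of cycle 2. These markers include the called gnat1 probe set, and without it these nearest arrays change order and the windows overlap. CT6 of cycle 2 lay apart with a sum of 21887 for the photoreceptor markers and 34214 for skin. In a pool a smaller number of cells of a type and less RNA per cell cannot be told apart. The median deposited intensity was 77.0 to 95.4 on the dawn arrays and 71.0 to 90.7 on the dusk arrays, and the hybridization controls, spiked in at fixed amounts, were higher on the last arrays sampled: 1545 and 1508 on CT22 and CT2 of cycle 2 and 1917 on CT10 of cycle 2, against 666 to 882 on the other 5 of the 8.

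**Figure D1:**
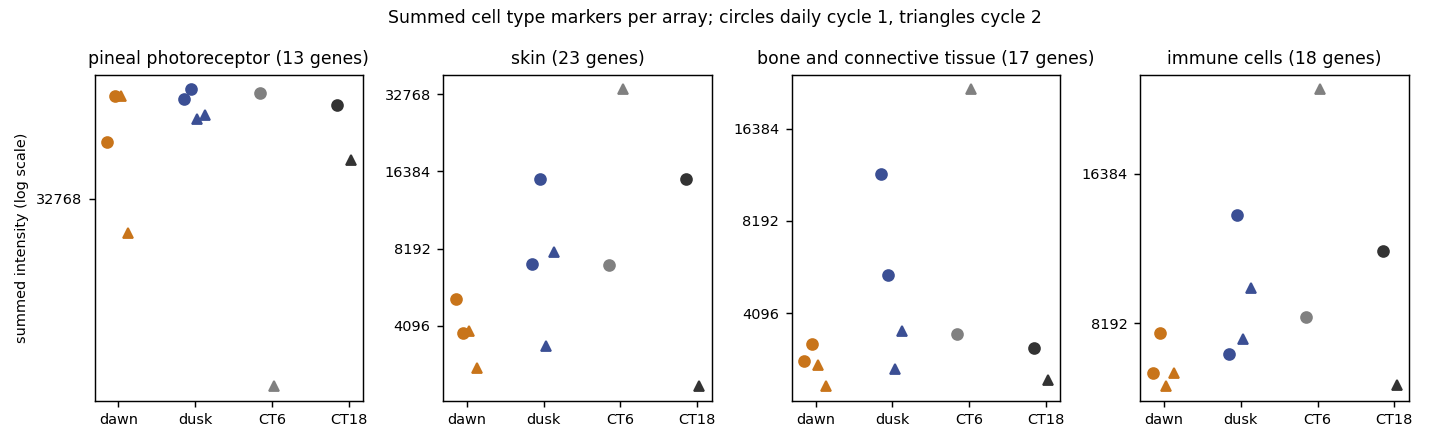
Summed normalized intensity (log scale) of 4 marker lists on each of the 12 arrays, with the dawn arrays left of the dusk arrays and CT6 and CT18 beside them; circles are daily cycle 1 and triangles cycle 2. The skin sum reached 15314 on a dusk array and 5216 at most on a dawn array, while CT10 of cycle 2, at 3419, lay within the dawn range.

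Few probe sets separated dawn from dusk beyond the spread of the arrays. By limma on the log2 values, with Benjamini-Hochberg adjustment at a false discovery rate of 0.05, 23 of 11625 probe sets differed, which is 0.198%: 8 were higher around dawn (0.0688%) and 15 lower (0.129%). Of these 14 had a gene symbol, 6 higher and 8 lower, against 0.0722% and 0.0963% of the 8307 tested with a symbol. The 8 rose 1.8-fold to 12.9-fold around dawn, with a median of 3.37-fold, and the 15 were 1.93-fold to 5.35-fold higher around dusk, with a median of 2.7-fold. On all 23 the 4 dawn and the 4 dusk arrays did not overlap. Non-overlap alone was common, with 371 probe sets higher around dawn (3.19%) and 409 lower (3.52%), and an unadjusted p under 0.05 was found for 587 (5.05%) and 689 (5.93%). The 9 called probe sets without a gene symbol, 2 higher and 7 lower around dawn, cannot be named from the annotation used here. The median difference of all probe sets was 0.00 on the log2 scale. The count moved with single arrays: it was 13 without CT14 of cycle 1, 14 without CT22 of cycle 1, 6 without CT10 of cycle 1, 7 without CT14 of cycle 2, 10 without CT22 of cycle 2 and 9 without CT2 of cycle 2. It was 19 without CT2 of cycle 1 and 26 without CT10 of cycle 2. It was also 0 without CT22, CT2 and CT10 of cycle 2, the arrays with the high hybridization controls, where 1008 still had an unadjusted p under 0.05, and 2 without a variance trend in the fit. The windows rest on the labelled times. With all labels moved by 1 sampling interval, so that CT18 and CT22 were set against CT6 and CT10, 19 passed. Of these 2, hsf2 and cyp27c1, were among the 23.

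**Figure D2:**
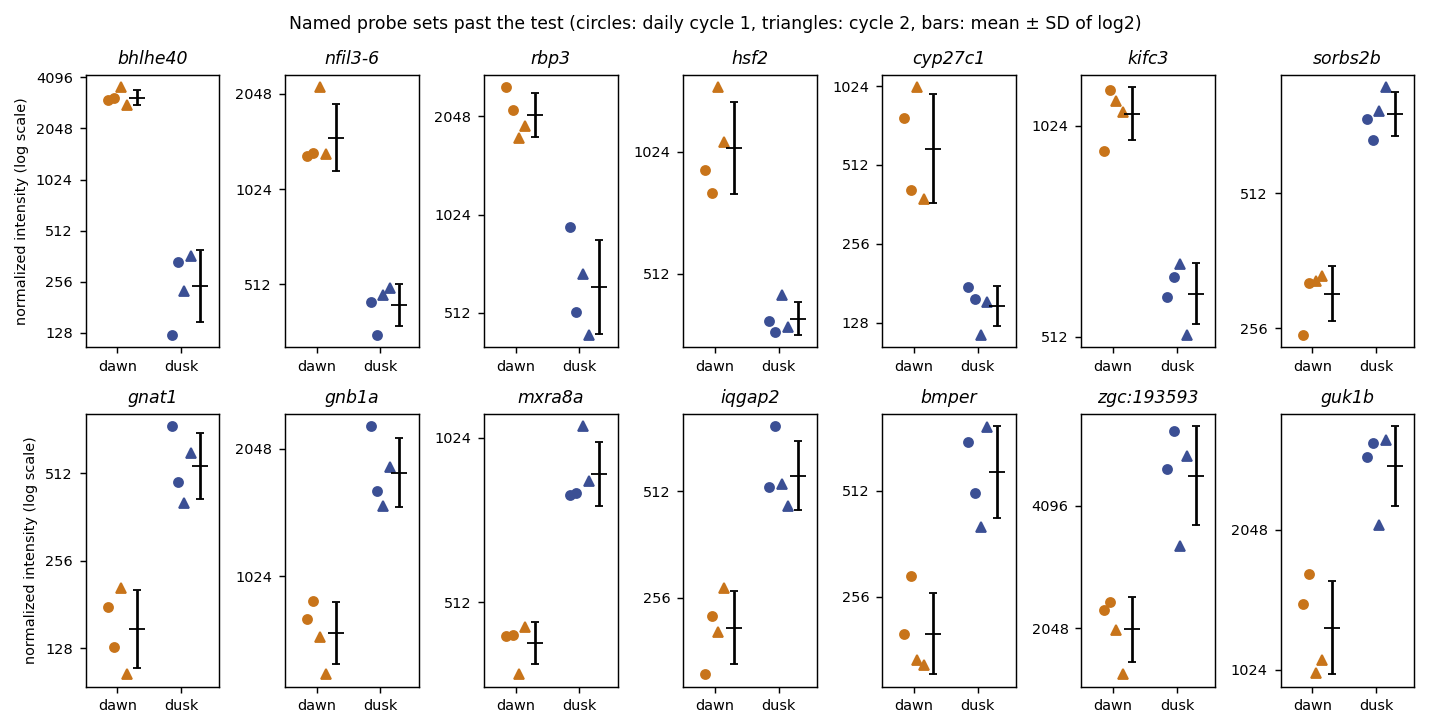
Normalized intensity (log scale) of the 14 named probe sets past the test on the 4 dawn arrays (left in each panel) and the 4 dusk arrays (right); circles are daily cycle 1, triangles cycle 2, and bars give the mean ± SD of the log2 values. In each panel the points of the windows lie apart, from 12.9-fold higher around dawn for bhlhe40 to 3.65-fold higher around dusk for gnat1.

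Of the 6 named genes that rose around dawn, 3 encode transcription factors. bhlhe40, also called dec1, a basic helix-loop-helix repressor that binds the E-boxes used by CLOCK and BMAL, measured 3008, 3106, 3599 and 2806 on the dawn arrays, against 124, 337, 226 and 363 on the dusk arrays. The lowest dawn array stood at 2806 and the highest dusk array at 363, a difference of 3.69 ± 0.29 on the log2 scale (SE, limma, adjusted p = 0.000349). nfil3-6, one of the zebrafish copies of the bZIP repressor NFIL3, which competes for D-boxes, measured 1301, 1326, 2154 and 1323 on the dawn arrays and 450.4, 353, 473 and 497 on the dusk arrays. Its difference was 1.76 ± 0.20 (limma, adjusted p = 0.00513), with 3 dawn arrays close together and the CT22 array of cycle 2 above them. hsf2, a heat shock transcription factor, measured 925, 809, 1482 and 1081 around dawn, against 389.9, 368, 453 and 378 around dusk, a difference of 1.40 ± 0.19 (limma, adjusted p = 0.0166). The dawn and dusk arrays of hsf2 lay far apart, with the dusk arrays close together, but the call was lost, at an adjusted p of 0.0665 at most, when CT10 of cycle 1, CT14 of cycle 2 or CT2 of cycle 2 was left out.

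Retinoid genes made up a pair among the 6. rbp3 encodes IRBP, the protein that carries retinoids between photoreceptors and their neighbours, and measured 2520.2, 2145, 1754 and 1919 on the dawn arrays, against 937, 517, 676 and 438 on the dusk arrays. Its groups did not overlap and its difference was 1.75 ± 0.23 (limma, adjusted p = 0.0118). cyp27c1, a cytochrome P450 that turns vitamin A1 into vitamin A2 and so shifts photoreceptors toward the red, measured 770.2, 411, 1016 and 379.9 on the dawn arrays and 175, 157, 115 and 153 on the dusk arrays. The CT22 arrays were above the CT2 arrays by 1.16 on the log2 scale and both pairs were above dusk. The window difference was 2.00 ± 0.30 (limma, adjusted p = 0.0221), a call kept only without CT2 of cycle 1 or CT2 of cycle 2 when 1 array was left out. kifc3, a minus-end-directed kinesin, measured 941, 1151, 1109.9 and 1069.7 on the dawn arrays and 583, 622, 649.9 and 515 on the dusk arrays. Its difference of 0.85 ± 0.14 was the smallest of the called genes (limma, adjusted p = 0.0422), and the call was lost whichever of the 8 arrays was left out, with adjusted p from 0.057 to 0.15.

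Genes lower around dawn included parts of the rod G protein. gnat1, the rod transducin alpha subunit that links rhodopsin to phosphodiesterase, measured 176.9, 129, 207 and 104 on the dawn arrays, against 744, 479.7, 405 and 601 on the dusk arrays. The highest dawn array stood at 207 and the lowest dusk array at 405, and the difference was -1.87 ± 0.26 (limma, adjusted p = 0.0166, lost without CT10 of cycle 1 or CT14 of cycle 2). Another gnat1 probe set was brighter, with means of 2286 around dawn and 3197 around dusk, against 154 and 557 for the called one. The difference of this brighter probe set, -0.49 ± 0.19, did not pass (limma, adjusted p = 0.369), and its windows overlapped. gnb1a encodes a G protein beta subunit of the type rods use, and measured 811, 894, 736 and 602 around dawn and 2314, 1624, 1501 and 1859 around dusk. That probe set fell by 1.26 on the log2 scale around dawn (SE 0.18, limma, adjusted p = 0.0173, lost without CT10 of cycle 1 or any of CT14, CT22 and CT2 of cycle 2). A second gnb1a probe set was brighter, with means of 1383 around dawn and 2015 around dusk, against 760 and 1825 for the called one. The second had a difference of -0.56 ± 0.15 (limma, adjusted p = 0.175) with no overlap either. guk1b, a guanylate kinase that returns GMP to the pool from which photoreceptors make cGMP, measured 1418, 1647, 1009 and 1074 on the dawn arrays and 2938, 3154, 2096 and 3189 on the dusk arrays, a difference of -1.15 ± 0.20 (limma, adjusted p = 0.0422). Its call was kept only without CT2 of cycle 1 or CT10 of cycle 2 when 1 array was left out.

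The others that fell around dawn were of mixed kinds. sorbs2b, an adaptor protein of actin fibres and cell junctions, measured 247, 323, 326 and 335 on the dawn arrays and 749, 672, 783 and 885 on the dusk arrays. It differed by -1.33 ± 0.16 (limma, adjusted p = 0.0114), and with bhlhe40, nfil3-6 and rbp3 it made the 4 named genes whose call held with any 1 of the 8 arrays left out, at an adjusted p of 0.0495 at most. With labels moved by 1 sampling interval none of these 4 passed, and the sorbs2b difference was -0.04 (limma, adjusted p = 0.992). The sorbs2b call was also lost without a variance trend (0.071) and with circadian time as a factor on 12 arrays (0.152). In the same settings rbp3 lost its call too (limma, adjusted p = 0.107 and 0.119). nfil3-6 lost its call without a variance trend (0.071) and kept it with that factor (0.0395), and bhlhe40 kept its call in each. bmper, a secreted regulator of BMP signalling, measured 201, 293, 169 and 164 on the dawn arrays and 708, 504, 406 and 777 on the dusk arrays, a difference of -1.53 ± 0.25 (limma, adjusted p = 0.0392, kept only without CT2 of cycle 1 or CT10 of cycle 2). iqgap2, a scaffold of the actin skeleton named here by the study's own list of probe sets, measured 155, 227, 204 and 273 on the dawn arrays and 529, 784, 538 and 465 on the dusk arrays, a difference of -1.43 ± 0.22 (limma, adjusted p = 0.0247, kept only without CT2 of cycle 2). mxra8a, a cell adhesion protein of the immunoglobulin superfamily, had 378 to 462 on the dawn arrays and 805 to 1074 on the dusk arrays and a difference of -1.03 ± 0.16 (limma, adjusted p = 0.0221, kept only without CT10 of cycle 2). zgc:193593, which has no other name in the annotation used, measured 2273, 2371, 2022.3 and 1575 around dawn and 5051, 6253, 3265 and 5427 around dusk, with a difference of -1.26 ± 0.21 (limma, adjusted p = 0.0392, kept only without CT10 of cycle 2).

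Skin and connective tissue markers leaned toward dusk, as the dusk-higher calls did, and photoreceptor markers did so in mean log2 intensity. The part of these markers in the calls was not tested. Among the 8 arrays the skin sum was highest on CT14 of cycle 1 and next on CT14 of cycle 2, and the connective tissue sum on CT10 and CT14 of cycle 1. The 13 photoreceptor markers had a median difference of -0.11, with 9 negative and 4 positive, and their sums overlapped between the windows. Of 24 phototransduction genes 6 had an unadjusted p under 0.05 (limma) on the side of dawn and 8 on the side of dusk. Among all probe sets tested 5.05% and 5.93% had such a p. The photoreceptor markers include gnat1, aanat2, tph1a and opn1lw1. Their mean log2 intensity was higher on each dusk array than on any dawn array, in the same direction as gnb1a and guk1b. The nearest arrays were CT22 of cycle 2 at 10.542 and CT10 of cycle 2 at 10.549. On these arrays gnat1 itself measured 207 and 405, a gap wide enough to reverse their order when gnat1 is left out. Without gnat1 the windows therefore overlap, and the separation rests on that called probe set. A difference of the other markers as a group was not tested. With both dusk arrays of cycle 1 left out, a choice made after seeing the sums, 2 of the 23, bhlhe40 and rbp3, passed. That fit set 4 dawn arrays against 2 dusk arrays. In it all 23 kept an unadjusted p under 0.05 (limma). The 23 had been selected by p on arrays that include these, which favours a low p, so this is no independent evidence. All 23 also kept their sign, which is fixed where the groups do not overlap. The skin and connective tissue genes named here did not pass in the full comparison. krt5, a keratin of the basal epidermis, had a difference of -1.62 ± 0.63 (limma, adjusted p = 0.367, and 0.0378 without CT10 of cycle 2), epcam, an adhesion protein of epithelia, -1.65 ± 0.44 (adjusted p = 0.185) and col1a1a, a chain of type I collagen, -1.98 ± 0.68 (adjusted p = 0.318). Of the 23 skin markers 19 had a negative difference and 5 of them an unadjusted p under 0.05, with a median of -0.66, against 5.93% and 0.00 for all probe sets tested. Immune markers were mixed: of 18 tested, 11 had a positive difference, and the median was 0.02. An unadjusted p under 0.05 (limma) was found for 4 on the side of dusk and 0 on the side of dawn. The shares of all probe sets tested were 5.93% and 5.05%. lcp1, an actin bundling protein of white blood cells, came nearest of them to a call. It measured 41.7, 31.2, 47.6 and 73.3 on the dawn arrays and 94.5, 139, 212 and 125 on the dusk arrays (limma, adjusted p = 0.0998, and 0.0331 with the last 4 arrays as a block).

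The threshold fell among closely spaced values. The last called probe set had an adjusted p of 0.0422 and the first not called 0.0503, and 40 probe sets lay between 0.05 and 0.1. camk1gb, a calcium and calmodulin dependent kinase of the gland, measured 1944, 2405, 1634 and 1774 on the dawn arrays and 795, 261, 988 and 402 on the dusk arrays, a difference of 1.84 ± 0.35 (limma, adjusted p = 0.0782). Its windows did not overlap, and the dusk window itself was uneven, with the CT10 arrays above the CT14 arrays. Over all 12 arrays camk1gb was highest at CT2 as labelled in each cycle. ndrg1b, a member of the NDRG family of stress-responsive genes, measured 207, 367, 193 and 305 around dawn and 1214, 453, 1095 and 639.9 around dusk (difference -1.61 ± 0.32, adjusted p = 0.0886). aqp1a.1, a water channel, had 843 to 1191 on the dawn arrays and 442 to 617 on the dusk arrays (difference 0.92 ± 0.17, adjusted p = 0.0609). None of these 3 passed the test, though camk1gb did without CT10 of cycle 2 (adjusted p = 0.032), ndrg1b without CT14 of cycle 1 (0.0408), and all 3 with circadian time as a factor on the 8 arrays (0.00559, 0.00592 and 0.0454 for camk1gb, ndrg1b and aqp1a.1). With that factor on 12 arrays camk1gb passed (0.0395), and ndrg1b (0.132) and aqp1a.1 (0.248) did not.

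No gene of the core clock passed. Of 13 tested, 3 had an unadjusted p under 0.05 with higher and 2 with lower values around dawn, against 5.05% and 5.93% of all probe sets, and the median difference was 0.24. per2, a light-induced period gene, came nearest, at 698, 505, 764 and 615 on the dawn arrays and 331, 397, 322 and 349.7 on the dusk arrays, without overlap (difference 0.87 ± 0.17, limma, adjusted p = 0.0885). A second per2 probe set had a difference of 0.20 ± 0.31. The cryptochromes pointed both ways. cry1b, a repressor of CLOCK and BMAL, measured 147, 86.8, 102 and 79.2 around dawn and 32.2, 30.9, 70.6 and 34 around dusk (difference 1.36 ± 0.35, adjusted p = 0.163). cry2a, another repressor, measured 1091, 2673, 998 and 1844 around dawn and 6371, 2207, 6134 and 3176 around dusk, an overlap, with a difference of -1.42 ± 0.38 (adjusted p = 0.185). Its level followed the hour within each window, by -1.09 between CT22 and CT2 and by -1.24 between CT14 and CT10 on the log2 scale. cry2, the study's cry3, had 127 to 391 on the dawn arrays and 66.3 to 167 on the dusk arrays (difference 1.201 ± 0.37, adjusted p = 0.273), and bmal1a, the partner of CLOCK, 22.1 to 123 and 82.7 to 156 (difference -1.18 ± 0.45, adjusted p = 0.355). The other 8, among them both clock genes, npas2 and the remaining bmal genes, had adjusted p from 0.511 for bmal2 to 0.904 for cry1a. With circadian time as a factor, which takes the slope inside a window out of the spread, cry2a passed (adjusted p = 0.00802 on 8 arrays and 0.0462 on 12). With all labels moved by 1 sampling interval 3 core clock genes passed: cry2a with a difference of -2.11 (adjusted p = 0.02), cry2 with 2.18 (0.00594) and bmal1a with -2.94 (0.0298).

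The accessory loops held 2 of the 8 probe sets higher around dawn, bhlhe40 and nfil3-6. Of 20 tested genes 2 rose and none fell by the test, 8 had an unadjusted p under 0.05 on the side of dawn and 2 on the side of dusk, and the median difference was 0.41. Of all probe sets tested 0.0688% rose and 0.129% fell, and 5.05% and 5.93% had such a p. nr1d2b, a REV-ERB receptor that represses bmal genes, measured 2128, 1185, 2145 and 1808 on the dawn arrays and 338, 843, 569 and 906 on the dusk arrays, without overlap but short of the test (difference 1.51 ± 0.30, adjusted p = 0.0886). A second nr1d2b probe set had a difference of 0.35 ± 0.30. ciarta, the CHRONO repressor, had the largest difference of the list after bhlhe40, 2.199 ± 0.60 (adjusted p = 0.193), from 550.3, 179, 636.7 and 173 on the dawn arrays and 27.5, 169, 41.3 and 127 on the dusk arrays. Within the windows CT22 was above CT2 by 1.75 and CT14 above CT10 by 2.12 on the log2 scale. bhlhe41, or dec2, the sister repressor of bhlhe40, measured 700.4, 350, 976 and 541 around dawn and 64.7, 327, 143 and 368 around dusk, where CT14 of cycle 2 lay above CT2 of cycle 1 (difference 1.72 ± 0.50, adjusted p = 0.225). With circadian time as a factor on 8 arrays nr1d2b, ciarta and bhlhe41 passed the test (adjusted p = 0.0153, 0.00559 and 0.0381), and on 12 arrays ciarta did (0.0206) and nr1d2b (0.0606) and bhlhe41 (0.0503) did not. With labels moved by 1 interval the differences of these 3 were 2.36, 4.16 and 3.41 (adjusted p = 0.00536, 0.0024 and 0.00536).

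The bZIP genes with the steepest slopes met in the middle. nfil3-5, another NFIL3 copy, measured 120.4, 285, 145 and 656 on the dawn arrays and 1748, 199.7, 1986 and 609 on the dusk arrays, a difference of -1.75 ± 0.69 with groups that overlapped (adjusted p = 0.374). It was thus on the opposite side of 0 to its paralog nfil3-6, and both dusk arrays at CT10 were its high ones. dbpa, a PAR bZIP activator of D-boxes, measured 1272, 617, 1533 and 989.8 around dawn and 220.4, 1274, 392 and 928 around dusk, a difference of 0.89 ± 0.48 (adjusted p = 0.52). Casein kinase 1 delta, which phosphorylates PER proteins, is encoded by a pair of genes in zebrafish. csnk1db had 1723 to 2636 on the dawn arrays and 1107 to 1462 on the dusk arrays (difference 0.72 ± 0.17, adjusted p = 0.126), without overlap, and csnk1da 1437 to 1808 and 1031 to 1472 (difference 0.42 ± 0.16, adjusted p = 0.362), with overlap. fbxl3a, the F-box protein that marks cryptochromes for destruction, had 722 to 1133 on the dawn arrays and 1187 to 1944 on the dusk arrays (difference -0.70 ± 0.19, adjusted p = 0.197), and rorab, an activator at the sites where REV-ERB represses, 198 to 355 and 123 to 251 (difference 0.71 ± 0.26, adjusted p = 0.338).

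**Figure D3:**
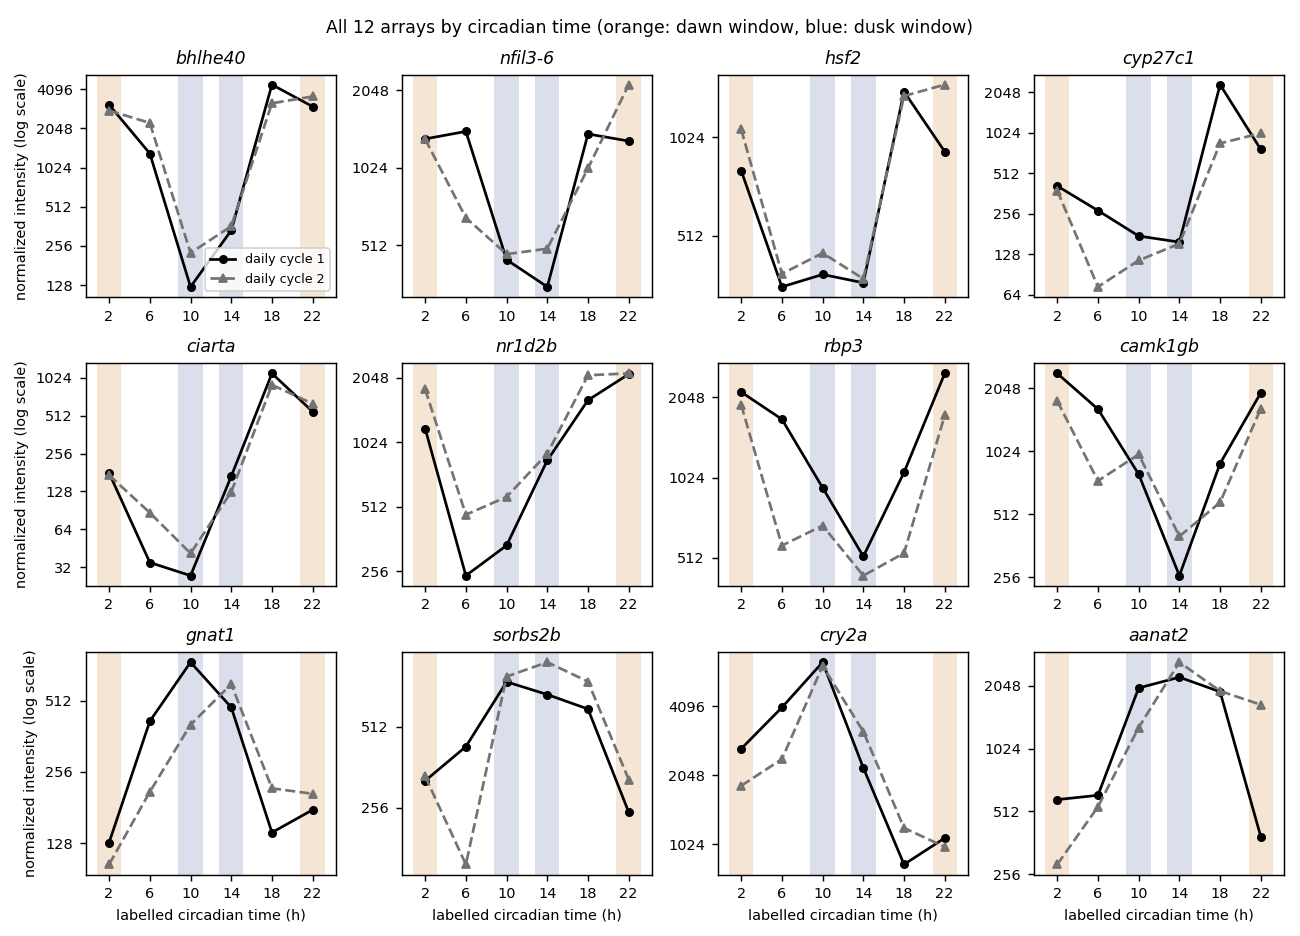
Normalized intensity (log scale) of 12 genes on all 12 arrays against labelled circadian time in hours; solid lines with circles are daily cycle 1, dashed lines with triangles cycle 2, and orange and blue bands mark the dawn (CT22 and CT2) and dusk (CT10 and CT14) windows. bhlhe40 stands near 3000 in the dawn bands and at 363 or less in the dusk bands, while ciarta and cry2a slope steeply inside both.

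No gene of melatonin and serotonin synthesis passed among 7 tested, of which 1 had an unadjusted p under 0.05 on the side of dawn and 2 on the side of dusk. Among all probe sets tested 5.05% and 5.93% had such a p. aanat2, the enzyme that sets the rate of melatonin synthesis, measured 388, 583, 1663 and 285 on the dawn arrays and 2001, 2253, 1293 and 2658 on the dusk arrays. CT22 of cycle 2 stood with the dusk arrays, so the windows overlapped, and the difference was -1.79 ± 0.44 (limma, adjusted p = 0.155). Within the dawn window CT22 was below CT2 in cycle 1 (388 and 583) and above it in cycle 2 (1663 and 285). Without CT22 of cycle 2 the difference passed (limma, adjusted p = 0.0234). tph1a, a tryptophan hydroxylase that starts serotonin synthesis, measured 867, 1045, 1195 and 777 around dawn and 2242, 2448, 980.1 and 1595 around dusk (difference -0.84 ± 0.27, adjusted p = 0.277), and its second probe set had the same difference, -0.84 ± 0.31. pcbd1, which recycles the cofactor of the hydroxylases, had 752 to 1496 on the dawn arrays and 520 to 851 on the dusk arrays (difference 0.59 ± 0.22, adjusted p = 0.357).

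Phototransduction genes lay on both sides. Of 24 tested, none rose and gnat1 fell around dawn by the test, where 0.129% of all probe sets tested fell. gnat1 entered this list through its dimmer probe set, as the study's probe set came first, and its brighter one did not pass (limma, adjusted p = 0.369). An unadjusted p under 0.05 was found for 6 with higher and 8 with lower values around dawn. Of all probe sets tested 5.05% and 5.93% had such a p. The median difference of the 24 was -0.16. guca1c, a guanylate cyclase activating protein, measured 199, 135, 215 and 126 on the dawn arrays and 21.3, 36.5, 60.1 and 74.1 on the dusk arrays, without overlap (difference 1.93 ± 0.38, limma, adjusted p = 0.0886). rcvrn3, a recoverin, the calcium sensor that restrains rhodopsin kinase, measured 2145, 2187, 2117 and 2014 around dawn and 1428, 1504.6, 1137 and 1221 around dusk (difference 0.69 ± 0.14, adjusted p = 0.0903), and its 4 dawn arrays lay within a narrow band. pde6hb, an inhibitory gamma subunit of cone phosphodiesterase, measured 1981, 3851, 4915 and 5404 around dawn and 1647, 1580.4, 1644 and 606 around dusk (difference 1.57 ± 0.36, adjusted p = 0.126). The gap was 0.78 on the log2 scale in cycle 1 and 2.37 in cycle 2. None of the 9 opsins passed. opn1sw1, the ultraviolet cone opsin, measured 76.4, 187.3, 166 and 153 on the dawn arrays and 66.6, 47.4, 72.5 and 40.6 on the dusk arrays (difference 1.32 ± 0.33, adjusted p = 0.155), and opn1lw1, a red cone opsin, 1550.3, 6974, 1207 and 3376 and 6193, 4374, 6608 and 4045 (difference -1.01 ± 0.44, adjusted p = 0.43). At dawn the opn1lw1 level was low at CT22 and high at CT2, by -1.83 on the log2 scale, so the windows overlapped.

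In the visual cycle and retinoid list 2 of 27 genes, rbp3 and cyp27c1, rose around dawn and none fell, 7 had an unadjusted p under 0.05 on the side of dawn and 1 on the side of dusk, and the median difference was 0.05, where 0.0688% of all probe sets tested rose and 5.05% and 5.93% had such a p. dhrs9, a retinol dehydrogenase, measured 184, 186.8, 247 and 148 on the dawn arrays and 83.9, 107, 60.9 and 98.5 on the dusk arrays (difference 1.14 ± 0.25, limma, adjusted p = 0.102). cyp26b1, which degrades retinoic acid, had 703 to 906 on the dawn arrays and 291 to 622 on the dusk arrays (difference 0.87 ± 0.22, adjusted p = 0.163), and its 3 other probe sets had differences of 0.71, 0.41 and 0.15. Neither dhrs9 nor cyp26b1 passed.

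Lists of housekeeping pathways were described by counts and medians beside those of all probe sets tested, for which 5.05% had an unadjusted p under 0.05 on the side of dawn and 5.93% on the side of dusk. Of 57 heat shock factors and chaperones 1, hsf2, rose by the test, 12 had an unadjusted p under 0.05 on the side of dawn and 1 on the side of dusk, and the median was 0.16. hspd1 and hspe1 encode the partners of the mitochondrial chaperonin. hspd1 measured 671, 757, 642 and 732 on the dawn arrays and 395, 422, 495 and 367 on the dusk arrays (difference 0.74 ± 0.15, adjusted p = 0.0973), and hspe1 1319.6, 1893, 1411 and 944 and 828, 808, 519 and 790.2 (difference 0.90 ± 0.22, adjusted p = 0.155). serpinh1b, the collagen chaperone HSP47, had a difference of 1.196 ± 0.31 (adjusted p = 0.168), on the side opposite to the collagen gene col1a1a. Of 79 ribosome biogenesis genes none passed, 9 had an unadjusted p under 0.05 on the side of dawn and 0 on that of dusk, and the median was 0.22. Of the same 79, 12 did not overlap with dawn higher and 0 with dusk higher, against 3.19% and 3.52% of all probe sets tested. rrp15, needed for ribosomal RNA processing, had 166 to 215 on the dawn arrays and 105 to 129.6 on the dusk arrays (difference 0.72 ± 0.19, adjusted p = 0.185). The differences of noc4l, nol10 and bysl, 3 other factors of the nucleolus and small subunit, were 1.39 ± 0.42, 0.65 ± 0.21 and 0.50 ± 0.17 (adjusted p = 0.262, 0.283 and 0.319). The 72 cytosolic ribosomal proteins had a median of -0.05 and none passed; rpl4 had 2575 to 4624 on the dawn arrays and 4828 to 5610 on the dusk arrays (difference -0.61 ± 0.18, adjusted p = 0.23), and rpl9 a difference of -0.40 ± 0.13 (adjusted p = 0.294).

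Energy metabolism held no call. Of 76 oxidative phosphorylation genes 59 had a positive difference, 9 an unadjusted p under 0.05 on the side of dawn and 1 on the side of dusk, and the median was 0.13. ndufa3, a subunit of complex I, had 653 to 899.7 on the dawn arrays and 498 to 572 on the dusk arrays (difference 0.58 ± 0.15, adjusted p = 0.185), and uqcrb, a subunit of complex III, a difference of 0.63 ± 0.19 (adjusted p = 0.247). Of 40 glycolysis and pyruvate genes 8 had an unadjusted p under 0.05 on the side of dawn and 3 on the side of dusk, and the median was 0.18. For both lists the shares of all probe sets tested with such a p were 5.05% and 5.93%. The lactate dehydrogenases pointed apart. ldha, the form that favours lactate, measured 488, 349, 275 and 321 on the dawn arrays and 218, 231, 153 and 202 on the dusk arrays (difference 0.82 ± 0.22, adjusted p = 0.185), and ldhbb, a form that favours pyruvate, 197, 219, 196 and 181 and 343, 297, 332 and 315 (difference -0.70 ± 0.16, adjusted p = 0.121). Neither pair of groups overlapped. pgk1, which makes ATP in glycolysis, had a difference of 0.72 ± 0.17 (adjusted p = 0.139) and slc16a3b, a lactate exporter, 0.66 ± 0.17 (adjusted p = 0.159). aldocb, the aldolase of nervous tissue, had 4374 to 5051 on the dawn arrays and 2441 to 4286 on the dusk arrays (difference 0.70 ± 0.18, adjusted p = 0.169), and a second probe set 0.82 ± 0.17 (adjusted p = 0.094). Without CT10 of cycle 2, the high dusk array, the first aldocb probe set passed (adjusted p = 0.0378).

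Among lipid genes, of which 34 were tested and none passed, members lay on both sides of 0. aclya, ATP citrate lyase, had 520 to 798 on the dawn arrays and 360.4 to 445 on the dusk arrays (difference 0.75 ± 0.17, adjusted p = 0.121). acaca, acetyl-CoA carboxylase, had a difference of 0.52 ± 0.15 (adjusted p = 0.248), and mid1ip1l, which helps that enzyme polymerize, 0.84 ± 0.19 (adjusted p = 0.117). acadvl, a mitochondrial acyl-CoA dehydrogenase, had 149.8 to 189.6 around dawn and 224 to 261 around dusk (difference -0.60 ± 0.17, adjusted p = 0.227). The list as a whole had 5 genes with an unadjusted p under 0.05 on the side of dawn and 4 on the side of dusk. Among all probe sets tested 5.05% and 5.93% had such a p. Of 44 vesicle genes 6 had such a p on the side of dawn and 0 on that of dusk: sar1b, a GTPase of vesicles leaving the endoplasmic reticulum, had 236 to 282 on the dawn arrays and 146 to 163 on the dusk arrays (difference 0.79 ± 0.17, adjusted p = 0.0998), and sh3gl2a, an endophilin of synaptic vesicle uptake, 916 to 1718 and 326 to 849 (difference 1.44 ± 0.31, adjusted p = 0.102, and with circadian time as a factor 0.00802 on 8 arrays and 0.0206 on 12).

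Solute carriers held no call. Of 107 tested, 3 had an unadjusted p under 0.05 on the side of dawn and 10 on the side of dusk, and the median was -0.11. Among all probe sets tested 5.05% and 5.93% had such a p. slc15a4, a lysosomal transporter of histidine and peptides, had 127 to 188 on the dawn arrays and 224 to 315 on the dusk arrays (difference -0.81 ± 0.20, adjusted p = 0.155). slc3a2a and slc3a2b, copies of the heavy chain of amino acid exchangers, had differences of -0.73 ± 0.19 and -0.49 ± 0.16 (adjusted p = 0.163 and 0.283). Immediate early and signal genes pointed both ways, with none of 30 past the test. dusp6, a phosphatase that shuts off ERK, measured 1289.6, 1375, 1859 and 1113 on the dawn arrays and 2337, 2277, 2341 and 2341 on the dusk arrays, which lay close together (difference -0.75 ± 0.16, adjusted p = 0.102). klf2a, a zinc finger factor of vessels, measured 105, 76.1, 117 and 45 around dawn and 374, 915, 122 and 151 around dusk, and its difference of -1.81 ± 0.55 (adjusted p = 0.266) was -2.71 in cycle 1 and -0.90 in cycle 2. sik2b, a salt-inducible kinase, and mycb, a MYC factor, had differences of 0.77 ± 0.18 and 0.76 ± 0.19 (adjusted p = 0.137 and 0.155). cirbpb, an RNA-binding protein induced by cold, had 1358 to 1929 on the dawn arrays and 2337 to 2575 on the dusk arrays (difference -0.64 ± 0.15, adjusted p = 0.117), and its second probe set a difference of the other sign, 0.46 ± 0.44. cul1b, a cullin scaffold of SCF ubiquitin ligases, had 154 to 269 and 412 to 518 (difference -0.95 ± 0.21, adjusted p = 0.102). The proteasome (51 genes, median -0.02), chromatin modifiers (70, 0.01), DNA repair (28, 0.01), cell cycle (53, -0.06), splicing (104, 0.10) and oxidation and glutathione (53, 0.04) lists held no call. In the last of these nqo1, a quinone reductase of the oxidative stress response, had 70.8 to 145 on the dawn arrays and 146 to 385 on the dusk arrays (difference -1.25 ± 0.33, adjusted p = 0.183), and phyhd1, a dioxygenase related to phytanoyl-CoA hydroxylase, 312 to 565 and 199 to 268 (difference 0.95 ± 0.21, adjusted p = 0.108).

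**Figure D4:**
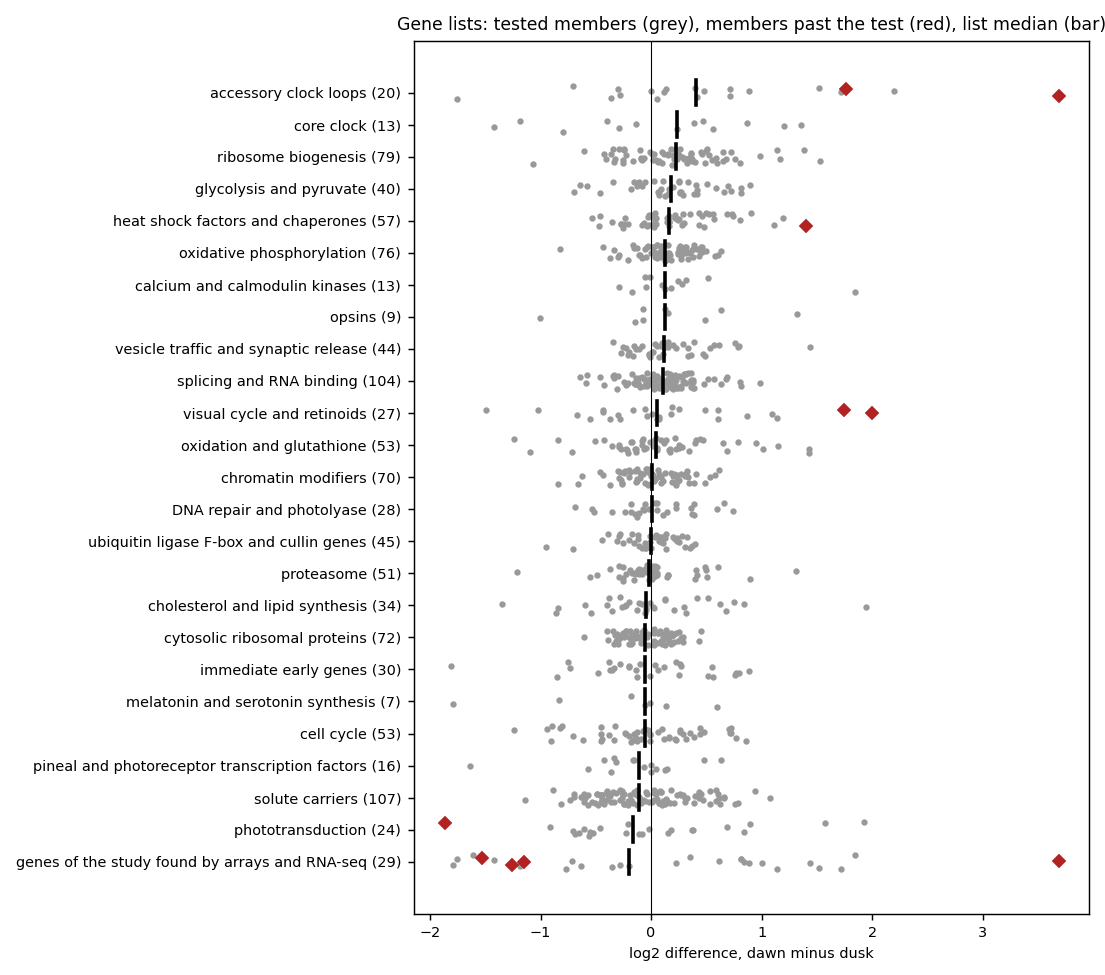
Log2 difference, dawn minus dusk, of every tested gene of 25 pathway lists (grey points), with genes past the test as red diamonds, the list median as a black bar and the number of genes tested in brackets. List medians lie between -0.20 and 0.41, and red points occur in 5 lists, with single genes shared between lists.

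The genes that the study found by arrays and by RNA-seq were chosen on these same arrays for a daily rhythm, so their counts are no independent evidence. Of 29 tested, 1 rose (bhlhe40) and 3 fell (bmper, zgc:193593 and guk1b) around dawn, against 0.0688% and 0.129% of all probe sets tested. An unadjusted p under 0.05 was found for 10 on the side of dawn and 12 on the side of dusk, against 5.05% and 5.93%. For 15 the windows did not overlap, 8 with dawn higher and 7 with dusk higher, against 3.19% and 3.52%. rimkla, an enzyme of N-acetylaspartylglutamate synthesis, measured 114, 118, 79 and 126 around dawn and 278, 168, 259 and 298 around dusk (difference -1.19 ± 0.24, adjusted p = 0.0903), and its other probe sets had differences of -1.12 and -0.90. ankhb, a pyrophosphate transporter, had a difference of -0.77 ± 0.16 (adjusted p = 0.0998) and arg2, mitochondrial arginase, 1.004 ± 0.35 (adjusted p = 0.326). For 7 of the 29 the unadjusted p was above 0.05. dbpa is one of these, with 295 and 309.7 at CT6 and 2629.8 and 3067 at CT18, outside both windows.

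The CT6 and CT18 arrays took no part in the test, and their levels were set beside each difference. At CT6 the mean lay between the dawn and dusk means for 19 of the 23 called probe sets, at CT18 for 17, and at both for 15. The 23 were selected for windows that lie far apart, so means at other times readily fall between them. The share over all probe sets tested was not counted, and no conclusion is drawn from these counts. On a scale with the dusk mean at 0 and the dawn mean at 1, the dawn-higher probe sets had a median of 0.289 at CT6 and 0.849 at CT18, and the dusk-higher ones 0.713 and 0.619. hsf2 and cyp27c1 were back at their dusk level by CT6, at positions of -0.06 and -0.04, and above their dawn level at CT18. hsf2 measured 357 and 392 at CT6 and 1412 and 1369 at CT18. cyp27c1 measured 270.2 and 73.1 at CT6 and 2337 and 855 at CT18. bhlhe40 stayed high for longer, with 1312 and 2253 at CT6 and 4434 and 3189 at CT18. rbp3 lay between the windows at both times, with 1695 and 568 at CT6 and 1071 and 533 at CT18, positions of 0.38 and 0.17. Among the genes lower around dawn, sorbs2b had a CT6 mean below its dawn mean (position 1.17) and was near its dusk level at CT18 (0.15). Its CT6 arrays went opposite ways, with 431 in cycle 1, above every dawn array, and 158 in cycle 2, below every dawn array. gnat1 lay between the windows at CT6 (0.47) and near its dawn level at CT18 (0.87). CT6 of cycle 2 is the array with the low photoreceptor and high skin sums. On it gnb1a, bmper, zgc:193593 and guk1b read 523, 143, 1335 and 976, below every dawn array. At CT6 of cycle 1 they read 2277, 306, 3564 and 2104, above every dawn array. The CT6 positions of these genes and of sorbs2b thus average arrays that disagree. gnat1, mxra8a and iqgap2 did not fall below every dawn array on CT6 of cycle 2. The cause of the low values on that array was not tested.

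**Figure D5:**
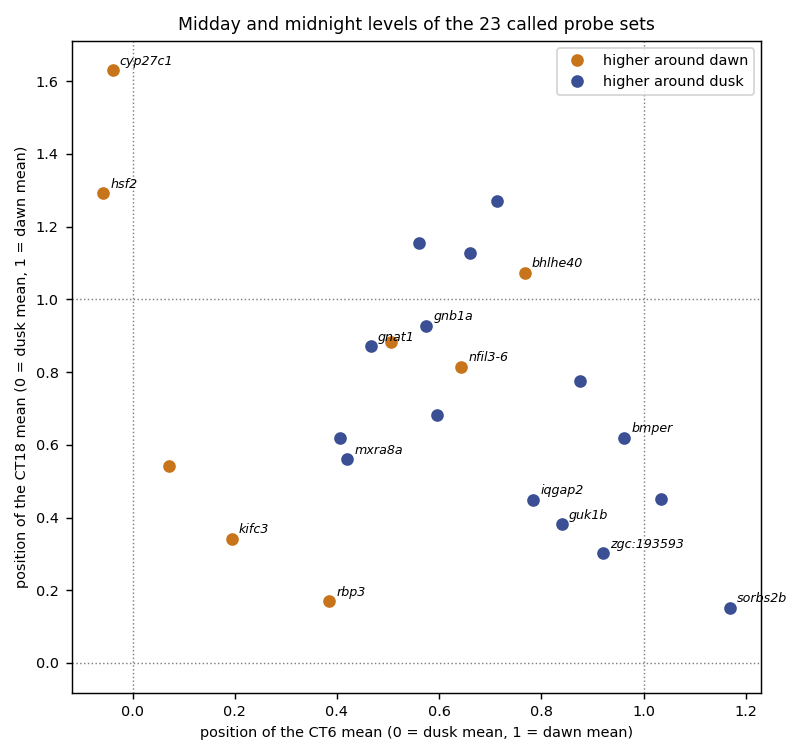
Position of the CT6 mean (x axis) and the CT18 mean (y axis) of the 23 called probe sets on a log2 scale where 0 is the dusk mean and 1 the dawn mean; orange probe sets were higher around dawn, blue ones around dusk, and dotted lines mark 0 and 1. cyp27c1 and hsf2 lie at the upper left, with CT18 above the dawn mean and CT6 at the dusk mean, and sorbs2b at the lower right.

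The 2 daily cycles gave differences of the same sign for all 23 called probe sets, against 59.0% of the 11625 tested, as the groups of a called probe set do not overlap and the sign is then fixed. The difference was 3.90 in cycle 1 and 3.47 in cycle 2 for bhlhe40, 1.72 and 1.80 for nfil3-6, 1.74 and 1.75 for rbp3, -1.33 and -1.33 for sorbs2b and -1.99 and -1.75 for gnat1 on the log2 scale. The widest gap among the 14 was that of iqgap2, with -1.78 and -1.08. Fitted as an interaction of window and cycle, 0 of 11625 probe sets differed between the cycles by limma (0.0%), with 393 at an unadjusted p under 0.05 (3.38%), which does not show that the cycles were alike.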

How the data were processed

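RNA of 12 pools of 12 pineal glands was labelled by the 2-cycle protocol and hybridized to 12 Affymetrix arrays. The deposited table holds signal intensity on a linear scale, which the authors scaled per array with GCOS; the submitters' processing notes also name MAS5, and no version is given in the sources used here. Detection calls and scanner files were not used here, so the background of a probe set is unknown and the number of arrays limits the precision. For the GAPDH control the log2 ratio of 3' to 5' signal was 5.27 to 6.14 on the dawn arrays and 5.43 to 5.84 on the dusk arrays. For the acta1 control it was 2.53 to 6.28 and -0.04 to 4.93. The part of this 3' excess in probe sets of 1 gene that differ was not tested. RNA-seq was not analysed here. The deposited intensities were turned to log2 here, control probe sets were left out, the 12 arrays were quantile-normalized as in the paper's methods, and the 25% of probe sets with the lowest maximum over the 12 arrays were dropped, leaving 11625. Dawn (CT22 and CT2) was fitted against dusk (CT10 and CT14) with limma 3.58.1 in R 4.3.3 (lmFit, eBayes with a variance trend, 6 residual degrees of freedom), and p-values were adjusted by Benjamini-Hochberg over all 11625. A difference is dawn minus dusk on the log2 scale with its SE. The fit was tested on simulated data.

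Gene symbols come from the platform annotation, updated through Entrez IDs to RefSeq (GRCz12tu); of 15502 probe sets 10795 had 1 symbol there, 15 more were named by the study's list, 135 had several and 4557 none. Named are all probe sets with 1 symbol past the test, the tested clock, melatonin and study-list genes with the lowest p, and up to 4 genes of each other list by p. A named gene is shown by its called probe set where it had one, so that choice rests on the test. Otherwise, and in all list counts, 1 probe set per gene was used, the study's or else that with the highest mean. krt5, epcam, col1a1a, lcp1, exorh, crx and aqp1a.1 were chosen after their values were seen. The comparison, the 25 pathway lists and the 10 marker lists were chosen with earlier results of these data known.

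Replicate numbers are the 2 daily cycles of the labels. The change between cycles correlated between the windows with r = 0.119 across probe sets. Circadian times are those of the labels. The study places the daily peak of camk1gb later than the labels of these arrays do. Its RNA-seq peaks of cry2a, cry2 (its cry3), bmal1a, dbpa and bhlhe41 are also later than the highest labelled time of each cycle here. nr1d2b and cry1b were highest at CT22 as labelled in each cycle. The study gives CT22 to CT2 for these genes. That range holds the labelled time and the time 1 sampling interval later, so these genes cannot tell whether the labels are shifted. The files do not tell whether all labels are shifted, so the labels were also moved by 1 sampling interval. Other alternatives were other normalizations, filters, an offset of 32, the cycle as a block, circadian time as a factor, no variance trend, a false discovery rate of 0.1, the last 4 arrays as a block or left out, and each array left out.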

Additional observations from a re-analysis of the deposited data

Results flagged for a closer look

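In 81 genes and 2 windows of 4 arrays, 11 of 162 sets of arrays had 1 array far from the other 3, by a gap that Dixon's test at 95% marks as large against the whole range, where chance alone flags about 1 in 20 sets. On the dawn arrays nfil3-6 was 2154 on CT22 of cycle 2, above 1301 to 1326 on the others (a gap of 0.962 of the range), sorbs2b was 247 on CT22 of cycle 1, below 323 to 335 (0.879), and cul1b was 154 on CT22 of cycle 2, below 249 to 269 (0.861). On the dusk arrays cry1b was 70.6 on CT10 of cycle 2, above 30.9 to 33.99 (0.885), and pde6hb was 606 on CT14 of cycle 2, below 1580 to 1647 (0.959). hspe1 was 519 on CT10 of cycle 2, below 790 to 828 (0.901), while rrp15 was 129.6 on CT10 of cycle 1, above 104.8 to 106 (0.946), and cul1b was 518 there, above 412 to 427 (0.849). CT14 of cycle 1 was the low array for serpinh1b, at 129 below 266 to 278 (0.943), for dusp6, at 2277 below 2337 to 2341 (0.942), and for cirbpb, at 2337 below 2545 to 2575 (0.879). The low dusp6 and cirbpb values lie within a few percent of the others. In each of these sets, cry1b included, the outlying array left the dawn and dusk groups apart.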

How the results depend on the processing

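Of 23 called probe sets, 15 remained with median centring (9 higher around dusk), which moved the median of all probe sets to -0.07, and all 15 were among the 23. No further normalization, no filter, a filter at 50%, an offset of 32, the last 4 arrays as a block and circadian time as a factor on 8 arrays gave 24 to 34, with 16 higher around dawn in the last of these. The daily cycle as a replicate block gave 24, of which 21 were among the 23, and kifc3 lost its call. Circadian time on 12 arrays gave 13 (4 higher around dusk), no variance trend 2 (1 each way), and a false discovery rate of 0.1 gave 63 (28 and 35). Without the last 4 arrays sampled 0 passed in either direction, and without both dusk arrays of cycle 1, an alternative chosen after seeing the data, 2 higher around dawn and 0 higher around dusk. Leaving out 1 array gave 6 to 26 in all, 3 to 9 higher around dawn, 3 to 17 higher around dusk, and 1055 to 1579 probe sets without overlap, where fewer arrays overlap less by construction. With median centring 12 called probe sets were intermediate at CT6 and 9 at CT18. With labels moved by 1 sampling interval 19 passed, 8 of them higher around dusk and 2 among the 23, and the difference turned to -0.0641 for rorab, 0.37 for aanat2, 0.29 for tph1a, -0.15 for cyp26b1 and 0.0358 for ldhbb. 10 genes not called under the labels passed there: cry2a (-2.11), cry2 (2.18), bmal1a (-2.94), nr1d2b (2.36), ciarta (4.16), bhlhe41 (3.41), nfil3-5 (-4.37), dbpa (2.74), opn1lw1 (-2.13) and sh3gl2a (1.84). The 5 changes of sign are all the reversals among 81 genes and 22 alternatives. The difference between cycles gave 0 calls under each of its 7 alternatives, with 201 to 583 at an unadjusted p under 0.05. The cause of these changes was not tested. With 1 pool per time the spread of pools at a given time is unknown, and no background level can be set for dim probe sets.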
